A study of Canis lupus familiaris with 29 samples.

Results

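Dopamine and adrenergic receptors are the cell-surface receptors for the catecholamines dopamine, norepinephrine and epinephrine. In the present data, 9 receptor genes were chosen by their symbols, and all 9 were found among the 30951 genes of the exon count table. They comprised the dopamine receptors DRD1 and DRD2, the alpha-1 adrenergic receptors ADRA1A, ADRA1B and ADRA1D, the alpha-2 adrenergic receptors ADRA2A, ADRA2B and ADRA2C, and the beta-1 adrenergic receptor ADRB1. All of these receptors act through G proteins. DRD1 and ADRB1 stimulate adenylyl cyclase and raise cyclic AMP, DRD2 and the alpha-2 receptors inhibit it, and the alpha-1 receptors activate phospholipase C and release calcium from internal stores. Chromaffin cells of the adrenal medulla make and secrete catecholamines, and inhibitory receptors on such cells are known to restrain that secretion.

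RNA was sequenced from tumor tissue of 19 client-owned dogs with pheochromocytoma, which arises in the adrenal medulla, or paraganglioma, which arises outside it (together PPGL), taken at surgery or after euthanasia. The comparison tissue was the normal adrenal medulla (NAM) of 10 healthy research dogs. The PPGLs were split by the authors into 7 tumors of group 1 and 12 tumors of group 2 from the position of these same samples in a principal component analysis, so a p-value between the groups describes that split. Outlying tumors that the authors had excluded are not among them. The labels give no age, breed or treatment. Total counts per sample were 19258054 to 35918182 in NAMs and 18208718 to 31919833 in PPGLs. Levels are given as CPM, the count of a gene relative to the total count of its sample after TMM scaling. A level of 3 counts, the most that a true level could plausibly be when no read is seen, corresponded to 0.0779 to 0.175 CPM, and covers counting error only.

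The labelled tissue was checked by marker genes first. Of 9 chromaffin cell markers found, the summed level ranged over the NAMs from 15434 to 89804 CPM, and over the PPGLs from 8441 to 116908 CPM. CHGB, a protein of the secretory granule, was the most abundant of them in all NAMs but replicate 1. PHOX2A, a transcription factor of the sympathoadrenal lineage, was above every NAM in all 19 PPGLs. Adrenal cortex markers were also present. Their summed level over 10 genes reached 14087 to 68994.5 CPM among NAMs, 92.0 to 1168 CPM among tumors of group 1 and 254.8 to 34374 CPM among those of group 2. Of these 10 markers, 9 were lower in PPGLs than in NAMs, among them STAR (log2 fold change -3.19, SE 0.55) and FDX1 (-3.15, SE 0.58), and 9 were lower in group 1 than in group 2, where the marker not called was STAR instead of HSD3B2. CYP17A1, an enzyme of steroid synthesis, was the most abundant cortex marker in 9 of 10 NAMs. In bulk tissue, fewer cells of a type and less RNA per cell cannot be told apart.

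Several tumors stood apart in these markers. Replicate 7 of group 1 had 27.1 CPM of CHGB, whereas every other PPGL had at least 6822 CPM, and it had 11.6 CPM of PNMT, the enzyme that makes epinephrine. It retained TH at 1379 CPM, DBH at 5192 CPM and HAND2 at 551.2 CPM, which are genes of catecholamine synthesis and of the sympathoadrenal lineage. Replicates 3 and 5 of group 1 had only 10.7 and 2.15 CPM of TH, the rate-limiting enzyme of catecholamine synthesis. In group 2, replicate 10 had a cortex marker level of 34374 CPM, within the range of NAMs. Where leaving out replicate 7 of group 1 changed the call of a receptor, the value without it is given as well.

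In the comparison of PPGLs with NAMs, 7 of the 9 receptors passed the filter on low counts, ADRA1A only through tumors. At an FDR-adjusted p below 0.05, 3 were higher in PPGLs (DRD2, ADRA1A and ADRA2C) and 2 were lower (ADRA2B and ADRB1), while ADRA1D and ADRA2A were not called and DRD1 and ADRA1B were not tested. Among all 14766 genes tested, 22.3% were higher and 15.2% were lower. Over the 29 fits that each left out 1 sample, 2 to 4 receptors were higher and 1 to 2 were lower. When any 1 NAM was left out, DRD1 passed the filter through its tumor counts alone and was higher. In those fits ADRA2C was called only without NAM replicate 4. The median log2 fold change (FC) was 0.81 over the 7 receptors and 0.13 over all genes tested.

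**Figure D1:**
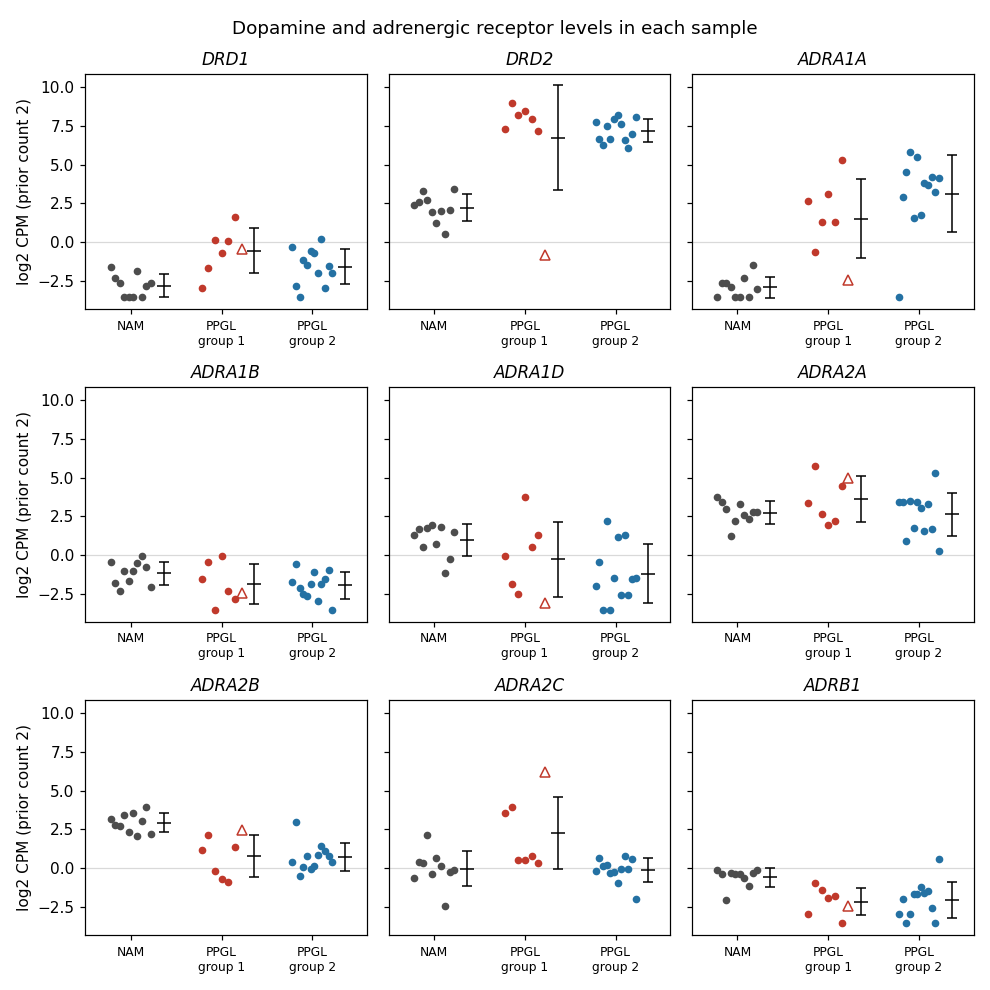
Level of each receptor gene in each sample, as log2 CPM with a prior count of 2 on the vertical axis, for the 10 NAMs and the 7 and 12 tumors of groups 1 and 2. Each point is 1 sample, the open triangle is replicate 7 of group 1, and the bars show the mean and SD of the group; DRD2 is above every NAM in 18 of 19 PPGLs, and ADRA2B is below every NAM in 16 of 19.

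DRD2 is the main inhibitory dopamine receptor. Its level ranged from 1.32 to 10.6 CPM in NAMs, with a median of 4.58, from 0.469 to 510.8 CPM in group 1, with a median of 243.4, and from 67.5 to 297.9 CPM in group 2, with a median of 152.7. All 12 tumors of group 2 and 6 of 7 tumors of group 1 were above every NAM. The exception was replicate 7 of group 1, which had 14 counts (0.469 CPM) and lay below every NAM. PPGLs averaged 193.1 ± 119.7 CPM (SD, n = 19), against 5.32 ± 2.99 CPM (SD, n = 10) for NAMs, and the log2 FC was 5.18 (SE 0.58, edgeR FDR-adjusted p = 2.385e-07). The gene lies at chr5:19732836-19795241 of CanFam3.1 on the plus strand, with 8 merged exons and an exon length of 2569 bp.

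DRD1, the stimulatory dopamine receptor of the list, was low throughout. NAMs had 0 to 6 counts, with no count in 4 of 10 and at most 3 counts in 8. PPGLs had 0 to 52 counts, and 12 of 19 were above every NAM, the highest being replicate 6 of group 1 at 3.03 CPM. DRD1 failed the filter between PPGLs and NAMs, but was tested when both PPGL groups entered as separate groups. It also passed the filter when any 1 NAM was left out. DRD1 was higher in each of those fits (log2 FC 2.64 to 3.18, edgeR FDR-adjusted p 0.00299 to 0.00807). No NAM had more than 6 counts, under the filter's minimum count of 10, so DRD1 entered these fits only through tumors. Their p-values are therefore no independent support. The log2 FC of DRD1 was 2.78 (SE 0.77, edgeR FDR-adjusted p = 0.00806) when no filter was applied, a fitted value that depends on the prior count and is no bound.

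ADRA1A, an alpha-1 receptor that couples to phospholipase C, was close to the limit of detection in NAMs. They had 0 to 5 counts each and 15 counts in all, with 9 of 10 at or under 3 counts. PPGLs of group 1 had 3 to 688 counts, with a median level of 2.38 CPM and a highest of 40.1 CPM, and those of group 2 had 0 to 56.0 CPM, with a median of 13.5. In total 17 of 19 PPGLs were above every NAM. The exceptions were replicate 7 of group 1, with 3 counts, and replicate 1 of group 2, with 0 counts although its DRD2 level was 218.6 CPM. The log2 FC was 7.76 (SE 1.08, edgeR FDR-adjusted p = 4.604e-06), and 6.62 with a prior count of 2, so the size of this value depends on how the near-absent NAM counts are treated. ADRA1A passed the low-count filter only through tumors, since no NAM reached the minimum count of 10. Its adjusted p carries that selection. The gene lies at chr25:30693571-30801486.

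ADRA1D and ADRA1B couple to the same pathway. ADRA1D was 0.356 to 3.75 CPM in NAMs (median 2.53), 0.0335 to 13.3 CPM in group 1 (median 0.875) and 0 to 4.46 CPM in group 2 (median 0.268). The tumors were split, since 11 of 19 PPGLs were below every NAM and 2 were above every NAM, replicate 4 of group 1 (13.3 CPM) and replicate 4 of group 2 (4.46 CPM). The log2 FC was -0.57 (SE 0.77, edgeR FDR-adjusted p = 0.587). It was -1.38 (adjusted p = 0.106) without replicate 4 of group 1, -1.94 (adjusted p = 0.0608) with the replicate number as a block and -2.01 (adjusted p = 0.293) with the cortex markers as a covariate. The Mann-Whitney U-test, which uses ranks, called it lower in PPGLs (adjusted p = 0.0336). ADRA1B had 3 to 17 counts per NAM and 0 to 20 per PPGL. Of the PPGLs, 7 of 19 were below every NAM in ADRA1B and 1 was above.

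ADRA2B, an inhibitory alpha-2 receptor, was lower in both groups of tumors. It was 4.19 to 15.4 CPM in NAMs (median 7.46), 0.447 to 5.52 CPM in group 1 (median 2.14) and 0.616 to 7.79 CPM in group 2 (median 1.44). No PPGL was above every NAM and 16 of 19 were below every NAM. The 3 that overlapped the NAMs were replicates 2 and 7 of group 1 (4.23 and 5.52 CPM) and replicate 2 of group 2 (7.79 CPM). PPGLs averaged 2.08 ± 1.89 CPM (SD, n = 19), against 8.18 ± 3.60 CPM (SD, n = 10) for NAMs, with a log2 FC of -1.97 (SE 0.37, edgeR FDR-adjusted p = 0.00016). Cortex markers differed between the same samples; with their mean log2 CPM as a covariate the log2 FC was -1.88 (edgeR FDR-adjusted p = 0.0207). Across the 19 PPGLs, ADRA2B and that mean had rho 0.19 (permutation p = 0.427). Within group 2 the rho was 0.49 (permutation p = 0.11), and over the 10 NAMs it was 0.25 (permutation p = 0.488). Cortex marker levels overlapped little between NAMs and PPGLs, so the fit with that covariate cannot separate cortex from tumor. The part of the cortex in the ADRA2B difference was not otherwise tested. The exons at chr17:34615096-34656791 overlap no exon of another gene.

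ADRA2C, also inhibitory, was very high in 1 tumor. It was 0.102 to 4.23 CPM in NAMs (median 0.908), 1.17 to 72.9 CPM in group 1 (median 1.67) and 0.169 to 1.64 CPM in group 2 (median 0.880). In group 1, replicates 1, 2 and 7 had 11.9, 15.2 and 72.9 CPM, above every NAM, whereas the remaining 4 had 1.17 to 1.67 CPM. The log2 FC between PPGLs and NAMs was 2.35 (SE 0.89, edgeR FDR-adjusted p = 0.0369). Without replicate 7 of group 1 it was 1.01 (adjusted p = 0.195). The adjusted p was also above 0.05 without any 1 of 9 of the 10 NAMs (0.0521 to 0.0622), namely all but replicate 4, and was 0.337 by the Mann-Whitney U-test. With the cortex markers as a covariate the log2 FC was -1.67 (adjusted p = 0.111). ADRA2C also had a smaller log2 FC and was not called with the replicate number as a block, as given below.

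ADRA2A, the other alpha-2 receptor, was 2.23 to 13.1 CPM in NAMs (median 6.84), 3.68 to 52.8 CPM in group 1 (median 10.2) and 1.13 to 39.0 CPM in group 2 (median 8.92). Most PPGLs (13 of 19) were within the range of NAMs, 4 were above and 2 were below. The highest were replicate 2 of group 1 (52.8 CPM), replicate 11 of group 2 (39.0 CPM) and replicate 7 of group 1 (31.4 CPM). The log2 FC was 0.81 (SE 0.49, edgeR FDR-adjusted p = 0.197), with a 95% interval of -0.15 to 1.77. Without replicate 2 of group 1 it was 0.53, and no fit that left out 1 sample called ADRA2A.

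ADRB1, the stimulatory beta-1 receptor, rested on few counts. NAMs had 4 to 28 counts (lowest 0.152 CPM, median 0.685) and PPGLs 0 to 25 counts (0 to 1.41 CPM, median 0.177), 93 in all. Of the PPGLs, 8 of 19 were below every NAM and replicate 12 of group 2 was above every NAM. The log2 FC was -1.45 (SE 0.50, edgeR FDR-adjusted p = 0.0231). ADRB1 was too low to be tested when replicate 2 of group 1 or replicate 12 of group 2 was left out, so that 1 and not 2 receptors were called lower there. With the cortex markers as a covariate the log2 FC was -1.13 (adjusted p = 0.319). Over the 10 NAMs, ADRB1 and the mean log2 CPM of these markers had rho -0.20 (permutation p = 0.583). The fit with the covariate has the limit given for ADRA2B, and the part of the cortex in the ADRB1 difference was not otherwise tested.

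The groups of tumors were compared with each other next. Of 7 receptors tested between groups 1 and 2, 1 was higher in group 1 at an FDR-adjusted p below 0.1 and 0 were lower by edgeR, also at an unadjusted p below 0.05, while 3.97% of 14666 genes were higher and 2.95% were lower. The receptor was ADRA2C, with a log2 FC of 3.98 (SE 0.70, edgeR FDR-adjusted p = 0.00606). Only replicates 1, 2 and 7 of group 1 were far above group 2, and replicate 5 was above it narrowly (1.67 against at most 1.64 CPM). Without replicate 7 of group 1 the log2 FC was 2.56 (adjusted p = 0.0247), and the Mann-Whitney U-test gave an adjusted p of 0.116. Cortex markers differed between the same groups, and with them as a covariate the log2 FC was 2.27 (adjusted p = 0.716). Of the smooth muscle markers, CNN1 (-2.95, adjusted p = 0.0485) and DES (-2.81, adjusted p = 0.00881) were also lower in group 1 by edgeR. The chromaffin marker HAND2 was higher there (1.02, adjusted p = 0.0638). The other 6 receptors had log2 FCs from -1.02 (ADRA1A) to 1.53 (ADRA1D) with adjusted p-values from 0.282 to 0.842, and ADRA1B and ADRB1 were not tested. Single tumors moved these values, none of which passed. ADRA1D reversed to -0.11 without replicate 4 of group 1, and ADRA2B, 0.25 over all tumors, reversed to -0.11 without replicate 7 of group 1. ADRA1A was -2.38 without replicate 6 of group 1, DRD1 was 0.68 without the same tumor in place of 1.36, and ADRA2A was 0.47 without replicate 2 of group 1 in place of 1.00. DRD2 was 0.28 without replicate 2 of group 1 in place of 0.57.

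Each group was also compared with NAMs in a fit of all 3 groups, in which all 9 receptors were tested. DRD1 and ADRA1A, with at most 6 and 5 counts in any NAM, passed the filter there only through tumors. In group 1, 4 were higher (DRD1, DRD2, ADRA1A and ADRA2C) and 2 were lower (ADRA2B and ADRB1), against 21.0% and 14.1% of 15201 genes. In group 2, 3 were higher (DRD1, DRD2 and ADRA1A) and 1 was lower (ADRA2B), against 18.4% and 14.5% of genes. The comparisons share the NAMs.

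The log2 FC of DRD2 was 5.50 (SE 0.62) in group 1 and 4.94 (SE 0.58) in group 2. That of ADRA1A was 7.04 (SE 1.09) and 8.06 (SE 1.09), and that of DRD1 was 3.50 (SE 0.80) and 2.15 (SE 0.73). ADRA2B was lower in both, with -1.82 (SE 0.52) and -2.08 (SE 0.43). For these 4 receptors both groups lay on the same side of NAMs. ADRA2C was 3.63 (SE 0.71, edgeR FDR-adjusted p = 0.000235) in group 1 and -0.37 (SE 0.60, adjusted p = 0.664) in group 2; without replicate 7 the value in group 1 was 2.18 (adjusted p = 0.00493). ADRA2A was 1.35 (adjusted p = 0.063) in group 1, and 1.37 (adjusted p = 0.0342) when only the compared groups were in the fit. ADRB1 was -1.79 (adjusted p = 0.048) in group 1, and -1.68 (adjusted p = 0.0833) without replicate 7. In group 2 ADRB1 was -1.29 (SE 0.575, edgeR FDR-adjusted p = 0.084), on the same side of NAMs though not called.

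**Figure D2:**
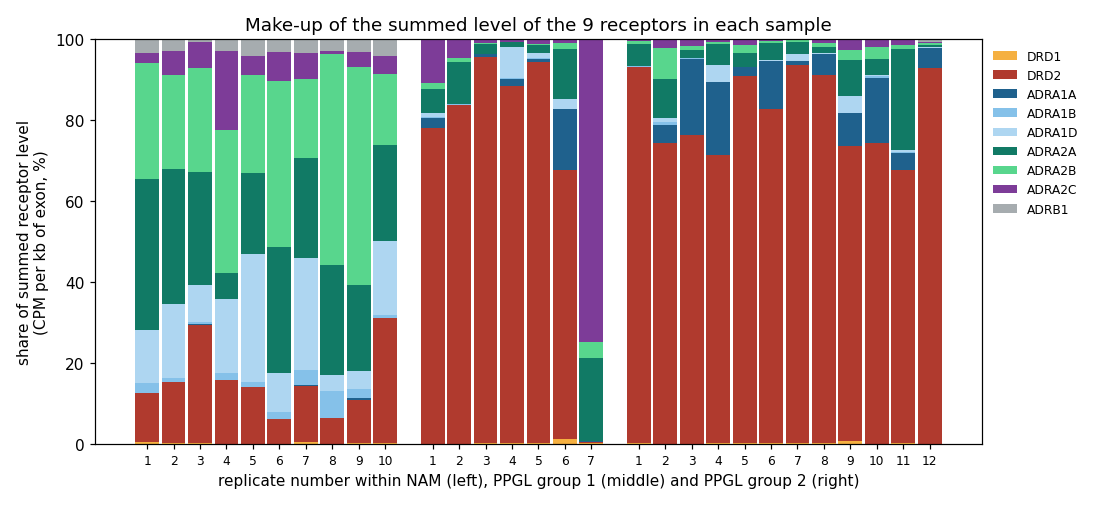
Share of each receptor in the summed level of the 9 receptors (CPM per kb of exon length, in percent, vertical axis) in each sample, 1 bar per sample, by group of samples. DRD2 has the largest share in 18 of 19 PPGLs, and ADRA2C in replicate 7 of group 1, where it is 74.7%.

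Levels of different receptors were compared per kb of exon length. In NAMs no single receptor led: ADRA2B was highest in 4 samples, and ADRA2A, ADRA1D and DRD2 in 2 each. The order of the mean log2 level was ADRA2B, ADRA2A, DRD2, ADRA1D, ADRA2C, ADRB1, ADRA1B, DRD1 and ADRA1A. Of the 8 neighbouring pairs, ADRA1D was above ADRA2C by 1.30 in log2 level (SD 0.94, n = 10, higher in 9 of 10 samples) and ADRA1B above DRD1 by 2.77 (SD 1.06, higher in 10 of 10), each with an adjusted p of 0.0156 by an exact sign-flip permutation test. DRD1 was at or under 3 counts in 8 of 10 NAMs, so the size of its gap to ADRA1B depends on the prior count. The other 6 neighbours did not pass this test.

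In PPGLs the order was DRD2, ADRA2A, ADRA1A, ADRA2C, ADRA2B, ADRA1D, ADRA1B, ADRB1 and DRD1. DRD2 was above ADRA2A by 3.78 in log2 level (SD 2.79, n = 19, higher in 18 of 19 samples, adjusted p = 0.00101, exact sign-flip permutation test). By the same test ADRA1D was above ADRA1B by 1.53 (SD 1.97, higher in 13 of 19, adjusted p = 0.0128). ADRA1B was at or under 3 counts in 8 of 19 PPGLs and ADRA1D in 6, so the size of their gap depends on the prior count. DRD2 made up 15.3 ± 8.43% (SD, n = 10) of the summed level per kb in NAMs, but 78.2 ± 21.2% (SD, n = 19) in PPGLs. The share of ADRA2B was 32.1 ± 13.0% in NAMs and 1.56 ± 1.81% in PPGLs. That share fell more than the level of ADRA2B, which averaged 4.27 and 1.09 CPM per kb, because DRD2 enlarges the sum. Thus DRD2 led the receptors in all PPGLs except replicate 7 of group 1. These levels depend on the gene models, in which the exon length was a multiple of 3 for 6 of 9 receptors. On CPM without division by length, 3 neighbouring pairs passed in place of 4. DRD2 was then above ADRA1D by 1.23 in log2 CPM in NAMs (higher in 10 of 10, adjusted p = 0.00781), ADRA1B above DRD1 by 1.64 (adjusted p = 0.00781), and DRD2 above ADRA2A by 4.03 in PPGLs (adjusted p = 0.000702). The gap of ADRA1D over ADRA2C in NAMs was 1.01 on that scale (adjusted p = 0.0521), and ADRA1D and ADRA1B were no longer neighbours in PPGLs.

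Across the 19 PPGLs, 21 pairs of 7 receptors were correlated on log2 CPM. None passed at an adjusted p below 0.05 for Spearman's rho or for Pearson's r, and 2 pairs had an unadjusted permutation p below 0.05 for rho and 6 for r. These counts were 1 and 1 without replicate 7 of group 1, and the r of DRD2 with ADRA2C, for example, was 0.17 in place of -0.60. Within group 2, which does not hold that tumor, DRD2 with ADRA2C had rho -0.69 (permutation p = 0.0165, adjusted p = 0.346). Its r there was -0.61 (permutation p = 0.0273, adjusted p = 0.399). In group 1 the rho was -0.11 (exact permutation p = 0.84, n = 7). Across the 19 PPGLs the closest pair was ADRA2A with ADRA2C, with rho 0.54 (permutation p = 0.0179, adjusted p = 0.376). Its r was 0.62 (permutation p = 0.00326, adjusted p = 0.0685), and 0.45 without the 2 tumors farthest from the median of ADRA2A. Within the groups, this pair had rho 0.57 in group 1 (exact permutation p = 0.2, n = 7) and 0.50 in group 2 (permutation p = 0.0987, n = 12). Without replicate 7 of group 1 it had rho 0.48 (permutation p = 0.0488, adjusted p = 0.478) and r 0.58 (permutation p = 0.0111, adjusted p = 0.233), and r was 0.20 there without the 2 farthest tumors, on which it rests.

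The mean log2 CPM of the cortex markers was compared with each of the 7 receptors in the same tumors. ADRA2C had rho -0.58 (permutation p = 0.0107, adjusted p = 0.0752) and r -0.61 (permutation p = 0.00305, adjusted p = 0.0214; r -0.55 without the 2 farthest tumors). Without replicate 7 of group 1 neither passed, with rho -0.51 (permutation p = 0.0323, adjusted p = 0.143) and r -0.52 (permutation p = 0.0236, adjusted p = 0.0952). Within the groups, which differed in these markers, neither relation passed, with rho -0.57 in group 1 (exact permutation p = 0.2, n = 7) and 0.06 in group 2 (permutation p = 0.869, n = 12). Without replicate 7 of group 1, DRD2 had rho -0.49 (permutation p = 0.041, adjusted p = 0.143). For the other receptors the adjusted p of rho was at least 0.2325 across the 19 PPGLs.

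For each receptor called between PPGLs and NAMs, the 3 named genes with the most similar ranking over the 19 PPGLs were listed from the 12749 genes ranked (12750 for ADRB1), as a description only. DRD2 was most like PLAGL1 (rho 0.88), PPP1R13L (0.78) and LGALS1 (0.78). ADRA1A was most like SYNPO (0.87), HRH2, the histamine H2 receptor (0.81), and PTPN5 (0.80). ADRA2C was most like MXD3 (0.83), ALDH3A2 (0.82) and KIF4A (0.82). ADRA2B was most like PDIA6 (0.80), GRAMD4 (0.79) and RAN (0.76), and ADRB1 like TMEM101 (0.83), DDX39B (0.80) and XPO1 (0.80). These values lay between 0.73 (RAN) and 0.88 (TMEM101) without replicate 7 of group 1.

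Of other receptors of the family, DRD3, DRD5 and ADRB3 were too low to test, and DRD4 and TAAR1 were not found by name. DRD5 had 0 counts in all 10 NAMs and 0 to 3 in PPGLs, so no fold is given.

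The genes that act downstream of the receptors were described in 6 lists. Of 72 genes tested, 22 (30.6%) were higher in PPGLs and 13 (18.1%) were lower, beside 22.3% and 15.2% of all genes tested. With the cortex markers as a covariate 13 were called in place of 35. The receptor kinases, arrestins and RGS proteins, which end receptor signals, had 11 of 18 higher and 1 lower, with a median log2 FC of 0.67 beside 0.13 over all genes. Of these, 7 and not 11 were called higher without NAM replicate 2, 6 or 8 or without replicate 11 of group 2, where GRK2, ARRB1, RGS5 and RGS10 lost their calls, and 2 and not 1 were lower without replicate 2 of group 1. RGS3 and RGS19, which speed the shut-off of G proteins, were higher by 1.34 (SE 0.30) and 1.46 (SE 0.33), and GRK5, a receptor kinase, fell by 2.57 on the log2 scale (SE 0.35, edgeR FDR-adjusted p = 2.937e-06).

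Of 10 G protein alpha subunits, 1 was higher (GNAS, log2 FC 0.59, SE 0.21), the stimulatory subunit, and 2 were lower (GNA14, -2.11, SE 0.29, and GNAI1, -0.82, SE 0.33). Of 9 adenylyl cyclases, ADCY3 was higher (1.80, SE 0.41) and 3 were lower, among them ADCY9 (-0.93, SE 0.17) and ADCY2 (-2.05, SE 0.58). In the phospholipase C and protein kinase C list, 3 of 12 were higher, among them PLCB4 (1.01, SE 0.26) and PRKCB (1.68, SE 0.65), and PLCB1 was lower (-1.44, SE 0.34). The next list held 9 genes, namely protein kinase A subunits, inhibitors of that kinase and PPP1R1B. Of these, PKIB (1.97, SE 0.44) and PKIA (0.50, SE 0.19) were higher and 3 were lower, among them PRKAR2B (-1.48, SE 0.27) and PRKACB (-0.91, SE 0.26). Of 14 phosphodiesterases, which break down cyclic AMP, 4 were higher, among them PDE4D (1.11, SE 0.22) and PDE1A (4.53, SE 1.06), and 3 were lower, among them PDE7B (-1.68, SE 0.31) and PDE8A (-0.74, SE 0.18). PDE1A was 81.1 CPM in replicate 7 of group 1, and its log2 FC without that tumor was 2.55 (SE 0.55, edgeR FDR-adjusted p = 0.000598). Many calls in these lists were near the threshold. Over the 29 fits that each left out 1 sample, 0 to 3 G protein subunits were higher and 1 to 2 lower, and 1 to 2 cyclases were higher and 2 to 4 lower. In the phospholipase C list 1 to 4 genes were higher, and in the protein kinase A list 1 to 2 were higher and 2 to 3 lower. Of genes called in these lists, ADCY8 lost its call in 23 of the 29 fits, PPP1R1B in 22 and PRKCD in 17. The call of GNAS was lost without NAM replicate 1, 6 or 8 (adjusted p at most 0.0563). That of PRKCB was lost without any NAM but replicates 4 and 8, without replicates 2 or 3 of group 1 or without replicates 7 or 11 of group 2 (adjusted p at most 0.0943). That of PKIA was lost without NAM replicate 1, 2 or 6 to 9, replicate 1, 6 or 7 of group 1, or replicate 3 to 6, 8 or 12 of group 2 (adjusted p at most 0.0890). That of GNAI1 was lost without NAM replicate 1, 2 or 5 to 7, replicate 1 or 4 of group 1, or any replicate of group 2 but 11 (adjusted p at most 0.0955).

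The genes that make, store and clear the ligands were also listed. Of 11 tested, 0 were higher by edgeR at the adjusted threshold (1 at an unadjusted p below 0.05, the vesicular transporter SLC18A2, log2 FC 2.53, adjusted p = 0.0626) and 3 were lower, among them the uptake transporter SLC22A3 (-1.53, SE 0.32) and, chosen after its values were seen, PNMT (-1.94, SE 0.64, edgeR FDR-adjusted p = 0.0177). The tumors were split in SLC18A2: 9 of 19 were above every NAM and 7 were below every NAM (0.131 to 1455 CPM in PPGLs). It passed without NAM replicate 3, replicate 1, 2, 5 or 7 of group 1, or replicate 9 of group 2 (adjusted p at least 0.0420). SLC18A1, the other vesicular transporter listed and named after its values were seen, went the other way (log2 FC -1.03, adjusted p = 0.0636). In SLC18A1, 12 of 19 PPGLs were below every NAM. It was called lower without replicate 2 or 3 of group 1 or replicate 11 of group 2.

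Other cell types were checked by their markers as well. Of 7 smooth muscle and pericyte markers tested, 3 were higher in PPGLs (CNN1, 1.89; NOTCH3, 1.64; and ACTA2, named after its values were seen, 1.45), and their summed level was highest in replicate 11 of group 2 (3278 CPM, most of all TAGLN), against 205.3 to 739.5 CPM in the other PPGLs. The median of that sum was 315.9 CPM in NAMs and 317.9 CPM in PPGLs. Without replicate 11 of group 2, CNN1 was 1.04 (adjusted p = 0.0942) and ACTA2 0.59 (adjusted p = 0.168), and neither was called. ACTA2 was also not called without any NAM but replicate 10 or without replicate 7 of group 2, nor CNN1 without NAM replicate 2. Of 8 endothelial markers 3 were lower, among them TEK (-1.14) and KDR (-1.09). Of the chromaffin markers, 3 of 9 were higher, among them PHOX2A (2.17) and HAND2 (1.41). Hepatocyte markers (2 tested; TF 1.57 and APOA1 -1.26), leukocyte markers (6 tested; CD3E 1.93 and CSF1R -0.72) and kidney markers (3 tested; SLC22A6 -4.64) each had 1 higher and 1 lower, and UMOD had 0 counts in every sample. TF was not called without replicate 11 of group 2 (0.94, adjusted p = 0.0505), APOA1 without NAM replicate 6 (adjusted p = 0.0594) and CSF1R without NAM replicate 2 (adjusted p = 0.0555). None of the 4 adipocyte and 5 Schwann cell markers tested was called by edgeR, while 3 of them, PLIN1 (1.14) and CDH19 (-1.44) included, had an unadjusted p below 0.05. PLIN1, CDH19 and SLC18A2 were chosen after their values were seen; PLIN1 passed without replicate 3 or 7 of group 1, and CDH19 without replicate 4 of group 1 or replicate 5 of group 2. The part of these other cell types in the receptor differences was not tested.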

How the data were processed

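Reads were 50 bp single-end from stranded mRNA libraries, aligned by the authors to CanFam3.1 with STAR; the authors deposited 1 table of raw counts over the exons of each Ensembl gene, with the exon length. The processing notes also name HTSeq. The strand setting and the treatment of reads mapping to several genes were not given in the sources used here. The counts were whole numbers, 24051 genes had a count, and no 2 samples were identical. All 29 samples were used.

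Members and gene lists were chosen with earlier results of these data known. Genes were filtered with filterByExpr (minimum count 10, minimum total 15), scaled by TMM and tested with the edgeR quasi-likelihood F test (edgeR 4.0.16, R 4.3.3; prior count 0.125), in 14766 genes for PPGLs against NAMs, 14666 between the groups and 15201 in the 3-group fit. Benjamini-Hochberg adjustment ran over all genes tested; the thresholds were 0.05, and 0.1 between the groups. The SE is the log2 FC divided by the square root of F. log2 CPM used a prior count of 2, and the cortex score is the mean log2 CPM of the cortex markers. Tests were two-sided. Correlations used 100000 permutations, or all of them in group 1. The Mann-Whitney U-test was exact where no values were tied. The fits and this test were tested on simulated data.

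Named genes were the members, up to 2 per direction from each other list with the smallest adjusted p among those called, and the 3 genes most like each called receptor. Alternatives were DESeq2 1.42.0 size factors or Wald test, library size, the Mann-Whitney U-test, other filters, a prior count of 2, a replicate block, the cortex score as a covariate, other samples in the fit, each sample left out, levels without length, and, added after the data were seen, the cortex correlations over the 10 NAMs. Clinical and histology data were not analysed here.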

Additional observations from a re-analysis of the deposited data

Results flagged for a closer look

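Across the 9 receptors, the groups of 10 NAMs and of 7 tumors of group 1 were each checked for a sample far from the others, 18 checks in all, of which chance flags about 1 in 20; the 12 tumors of group 2 were not checked. The check picked 1 value. DRD2 in replicate 7 of group 1 was -0.86 in log2 CPM, and the next lowest tumor of the group was at 7.18. The same tumor had the highest ADRA2C level of all samples (72.9 CPM) and 27.1 CPM of CHGB.

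ADRA2C differed between the tumor groups in its change against NAMs. The log2 FC between group 1 and group 2 was 3.98 (edgeR FDR-adjusted p = 0.00606), and 2.56 without replicate 7 of group 1. It was not called by the Mann-Whitney U-test, with the cortex score as a covariate or with the replicate block.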

How the results depend on the processing

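The log2 FCs of single receptors were tallied where a receptor was tested in both the main and the other fit. Under other settings, 157 values kept their direction and side of the threshold, 6 lost the call, 2 gained it and 3 reversed. With 1 sample left out, 339 kept both, 11 lost the call and 2 reversed. The tally omits, among others, fits in which DRD1 was newly tested and higher, and those in which ADRB1 was no longer tested. With the cortex score as a covariate, 3 receptors in place of 5 were called between PPGLs and NAMs, 0 in place of 1 between the groups, and 13 in place of 35 signalling genes; all genes called fell to 2182 from 5541 and to 0 from 1015 (1531 at an unadjusted p below 0.05). In that fit ADRA2A was -0.32 and ADRA2C -1.67 between PPGLs and NAMs, and ADRA1A 0.95 between the groups. The score was 9.31 to 11.5 in NAMs, -0.195 to 4.07 in group 1 and 3.40 to 10.3 in group 2. It overlapped little between the compared samples, so a fit with this covariate cannot tell cortex and group apart. Between the groups, the Mann-Whitney U-test and the replicate block each called 0 receptors, and 300 and 47 genes; DESeq2's Wald test called 1793 genes and the 3-group fit 2567, both with 1 receptor. With 1 sample left out, ADRA1D between the groups ranged from -0.11 (without replicate 4 of group 1) to 2.17 and ADRA2B from -0.11 (without replicate 7 of group 1) to 0.71. All genes called were 525 without replicate 7 of group 1 and 674 without replicate 4 of group 2. The cause of these changes was not tested. Replicate numbers do not pair dogs, since NAMs came from research dogs and PPGLs from client-owned dogs. The labels give these numbers no other meaning, so the block stands for no known factor. The 24 same-numbered pairs had a median correlation of -0.01 in their deviations (-0.23 to 0.25). With the replicate block, 4 receptors in place of 5 were called between PPGLs and NAMs, where ADRA2C was 0.96 (edgeR FDR-adjusted p = 0.368). The cortex correlations gave 0 adjusted p of rho below 0.05 over the 10 NAMs. Counts limit DRD1, ADRA1B and ADRB1, and ADRA1A in NAMs.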

Other observations

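Over the 10 NAMs, added after the data were seen, the relation of DRD2 to the cortex score was negative and did not pass correction for 7 relations (rho -0.60, permutation p = 0.0731, adjusted p = 0.397; r -0.63, permutation p = 0.0497, adjusted p = 0.187; r -0.98 without the 2 farthest NAMs). ADRA1D had a similar relation (rho -0.54, permutation p = 0.113, adjusted p = 0.397; r -0.62, permutation p = 0.0535, adjusted p = 0.187; r -0.50 without the 2 farthest NAMs).

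DRD2 was also high in 3 tumors with little TH. Replicates 3 and 5 of group 1, with 10.7 and 2.15 CPM of TH and 0.285 and 0.3575 CPM of DDC, had 288.8 and 243.4 CPM of DRD2. Replicate 7 of group 2 had 32.3 CPM of TH and 297.9 CPM of DRD2, but 189.5 CPM of DDC, within the range of NAMs.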
